A study of Mus musculus with 100 samples.

Results

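The genes of the activator protein 1 (AP-1) and ATF family that are known for rapid changes in stimulated cells were followed across all ChIP-seq tables: Fos, Fosb, Fosl1 and Fosl2 of the FOS group, Jun, Junb and Jund of the JUN group, and Atf3 and Batf. A region was assigned to one of these 9 genes when the annotation of the tables named it as the gene with the nearest transcription start site (TSS). The 15 tables held regions of 18524 genes, and 1270 of their 610301 regions belonged to the 9 genes: 299 to Jun, 262 to Fos, 202 to Fosl2, 153 to Batf, 142 to Atf3, 114 to Junb, 59 to Fosb, 37 to Jund and 2 to Fosl1. The assignment used no measured value. The nearest TSS does not show which gene a region regulates, and expression was not measured in these tables.

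The cells were mouse bone marrow-derived macrophages (BMDMs) of C57Bl6 background, with 2 libraries in every group. Wild-type BMDMs received vehicle (Veh) or Kdo2-lipid A (KLA), a ligand of Toll-like receptor 4 (TLR4), for 6 h, and were profiled for 8 proteins. These were the corepressor NCoR with its deacetylase HDAC3, p65 of NFκB, the AP-1 protein Fosl2, the lineage factor PU.1, the coactivator PGC1b, the kinase ERK1 and the acetyltransferase p300. The p300 Veh libraries are labelled 0 h, and the labels of the PGC1b and ERK1 Veh libraries give no time. Wild-type BMDMs with KLA were also given an ERK inhibitor (ERKi) for NCoR, where the comparison group had KLA with no DMSO named, and for PGC1b, where Veh and KLA groups with DMSO served as controls. Labels of the ERKi libraries and of the PGC1b DMSO libraries give no time, whereas the NCoR KLA libraries are labelled 6 h. H3K27ac, the acetyl mark on histone H3 found at active enhancers and promoters, was measured with Veh and with KLA in NCoR flox/flox BMDMs (labelled WT) and in NCoR flox/flox, LysMCre BMDMs (NKO). It was also measured in PGC1b flox/flox BMDMs with and without LysMCre, and in wild-type BMDMs with DMSO and Veh, DMSO and KLA, or the HDAC3 inhibitor RGFP966 and KLA. The H3K27ac Veh libraries of the NCoR and PGC1b genotype experiments carry no time label. LysMCre deletes floxed alleles in cells of the myeloid lineage, and all groups of each genotype experiment carried the floxed alleles. Wild-type bone marrow cells were also differentiated to osteoclasts with M-CSF and RANKL, and ERK1 and p300 were mapped on day 0 and on day 4.

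AP-1 is a dimer of basic leucine zipper (bZIP) proteins. JUN proteins pair with each other, with FOS proteins or with ATF and BATF proteins, and the pair binds short palindromic DNA elements. In macrophages, AP-1 acts beside PU.1 at enhancers, Fos, Fosb, Jun, Junb and Atf3 are immediate early genes of TLR signaling, Atf3 restrains cytokine genes, Batf shapes gene programs of activated immune cells, and Fos is required for osteoclasts to form.

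Library totals ran from 4.30 to 21.5 M tags, and 2.79% to 52.8% of tags lay inside the listed regions. Values are given as tags per 10 M of the library total, for replicate 1 and then replicate 2. A region was called when its Benjamini-Hochberg adjusted p-value over the whole table was under 0.05 (edgeR quasi-likelihood F-test) and it changed more than 2-fold. Because tags in regions took a larger share of some groups, scaling by the trimmed mean of M-values (TMM), which centres most regions on no change, moved the median log2 fold change of all regions. Library totals gave a median above that of TMM by 1.22 for p65, 0.52 for p300, 0.28 for HDAC3, 0.20 for ERK1 and 0.11 for PGC1b with KLA, and below it by 0.42 for PU.1 (a shift of −0.42), while NCoR and Fosl2 moved by 0.01 at most. TMM values therefore stand beside the others where they change a call. Shares of all regions called are given on library totals only, so no such share stands beside the TMM counts. Of 6 macrophage marker genes, 6 had an H3K27ac region within 2 kb of the TSS in the DMSO and PGC1b flox/flox experiments and 3 in the WT and NKO experiment, whereas 1 of 7 markers of other bone marrow cells had one in the first pair of experiments and 0 in the last. H3K27ac at the Ncor1 promoter was 44.8 to 51.7 tags per 10 M in WT and 54.7 to 70.2 in NKO, which does not test the deletion of floxed exons.

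The sequences of the regions on which the results turn are shown from the mm10 genome, + strand, as 200 bp around the centre of a site. They were chosen after their values were seen. The first 4 gained the most factors or tags with KLA, the next 2 lost NCoR and HDAC3, the one near Junb gained NCoR and ERK1 downstream of the gene, and the last is the 250 bp before the Fos TSS, from RefSeq promoters of the same build. Capitals mark motif matches on either strand: AP-1 (TGAGTCA), the NFκB (kB) consensus and the serum response (CArG) consensus. PU.1 (GAGGAAGT) and the cyclic AMP response element (CRE, TGACGTCA) had no match in these 8 sequences, and none of the searched strings contains another.
Batf −20.0 kb, chr12:85666658-85666857, intergenic: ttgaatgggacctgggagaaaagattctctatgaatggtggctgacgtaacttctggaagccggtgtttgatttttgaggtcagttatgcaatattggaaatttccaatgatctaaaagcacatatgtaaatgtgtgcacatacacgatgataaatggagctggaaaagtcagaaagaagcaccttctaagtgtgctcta
Batf +16.9 kb, chr12:85703548-85703747, intron: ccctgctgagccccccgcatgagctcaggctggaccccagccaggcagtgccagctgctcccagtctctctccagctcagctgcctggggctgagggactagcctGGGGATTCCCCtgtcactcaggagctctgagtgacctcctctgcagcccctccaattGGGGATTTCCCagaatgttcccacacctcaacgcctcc
Fos +39.9 kb, chr12:85513693-85513892, intergenic: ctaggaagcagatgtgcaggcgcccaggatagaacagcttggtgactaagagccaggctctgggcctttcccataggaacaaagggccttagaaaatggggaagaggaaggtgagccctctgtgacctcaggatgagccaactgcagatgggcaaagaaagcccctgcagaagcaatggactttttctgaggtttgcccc
Fosl2 +32.2 kb, chr5:32168614-32168813, intergenic: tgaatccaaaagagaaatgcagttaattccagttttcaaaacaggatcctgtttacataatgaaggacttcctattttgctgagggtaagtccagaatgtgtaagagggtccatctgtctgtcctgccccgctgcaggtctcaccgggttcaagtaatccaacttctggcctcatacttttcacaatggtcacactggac
Fosl2 −32.2 kb, chr5:32104224-32104423, intergenic: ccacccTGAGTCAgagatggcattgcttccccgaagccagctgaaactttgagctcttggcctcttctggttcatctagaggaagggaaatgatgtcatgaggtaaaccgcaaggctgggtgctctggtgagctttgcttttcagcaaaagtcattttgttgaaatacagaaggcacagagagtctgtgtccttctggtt
Jun −31.9 kb, chr4:95084062-95084261, intergenic in the tables: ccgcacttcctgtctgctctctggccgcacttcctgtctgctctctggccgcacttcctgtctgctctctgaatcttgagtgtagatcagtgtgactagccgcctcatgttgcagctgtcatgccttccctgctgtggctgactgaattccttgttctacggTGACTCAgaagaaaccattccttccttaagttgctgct
Junb +2.1 kb, chr8:84976518-84976717, downstream of the transcript end: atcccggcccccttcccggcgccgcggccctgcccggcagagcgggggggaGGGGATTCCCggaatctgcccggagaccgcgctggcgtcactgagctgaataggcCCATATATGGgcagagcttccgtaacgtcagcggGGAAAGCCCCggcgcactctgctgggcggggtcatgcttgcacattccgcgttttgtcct
Fos promoter, chr12:85473640-85473889: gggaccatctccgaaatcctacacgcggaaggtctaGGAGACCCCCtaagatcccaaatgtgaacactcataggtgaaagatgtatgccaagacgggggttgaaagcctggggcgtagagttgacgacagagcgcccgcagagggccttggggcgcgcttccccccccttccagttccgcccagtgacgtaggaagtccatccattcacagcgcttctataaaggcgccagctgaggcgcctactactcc

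Batf +16.9 kb held matches to the kB consensus in 2 places, whereas Batf −20.0 kb, Fos +39.9 kb and Fosl2 +32.2 kb held none of the 5 motifs in the window. Among 41 named sites, 4 had an AP-1 match (Fos +45.9 kb, Fosl1 +1.1 kb, Fosl2 −32.2 kb and Jun −31.9 kb), 5 a PU.1 match, 4 a kB match, 1 a CArG match and 0 a CRE match. Counted per region of the same width, kB matches were in 14 of 103 p65 regions of the 9 genes (13.6%) and in 7.61% of all p65 regions, and AP-1 matches were in 11 of 74 Fosl2 regions of the 9 genes (14.9%) and in 23.2% of all Fosl2 regions. In promoters of 300 bp around the TSS, 3 of 8 matched members had a kB match (Fos, Fosb and Fosl2), compared with 4.51% of 32851 promoters, and AP-1, CRE, PU.1 and CArG matches were in 0 of 8, compared with 5.2%, 1.79%, 3.2% and 1.63% of all promoters. These promoter windows ran from 250 bp upstream to 50 bp downstream of the TSS, so elements farther out were not counted. Only exact matches to the searched strings and consensus patterns counted. Fosl1 was not matched.

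To ask where the factors met at these genes, regions of the 8 factor tables with Veh and KLA whose centres lay within 500 bp of each other were joined, which gave 178 sites. Of these, 39 were held by all 8 factors and 44 by 1. The 39 sites were 12 near Fos, 7 near Jun, 6 near Fosl2, 5 near Atf3, 4 each near Junb and Batf and 1 near Fosb, and none of the sites of Fosl1 and Jund was held by all 8. At the 39 sites KLA moved the factors in opposite ways in different places: 19 sites had only higher calls, 10 had only lower calls, 2 had both and 8 had neither. Under TMM the balance among these sites turned, with 12 only higher, 18 only lower, 0 both and 9 neither. Whether it turned more than over all regions was not tested. Gains in at least 5 factors were seen at 5 sites, Fos +16.7 kb and +39.9 kb, Fosl2 −180.0 kb and +32.2 kb and Batf +18960 bp. Losses in at least 2 factors were seen at 10 sites, 5 of them near Jun and 2 near Fosl2. TMM gave 5 and 13 such sites, with Batf −27.1 kb in place of Batf +18960 bp among the gains. At the same 39 sites p65 was called higher at 20 and lower at 0, p300 higher at 12 and lower at 3, NCoR higher at 7 and lower at 9, and HDAC3 higher at 8 and lower at 9. Over all regions, 57% were higher and 5.43% lower for p65, and 42.1% and 12.9% for p300. These shares were 23.4% and 16.7% for NCoR and 27.5% and 11.3% for HDAC3. Under TMM the counts were 9 and 5 for p65, 9 and 8 for p300, 7 and 9 for NCoR and 4 and 11 for HDAC3, so that the NCoR counts alone of these 4 were the same.

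**Figure D1:**
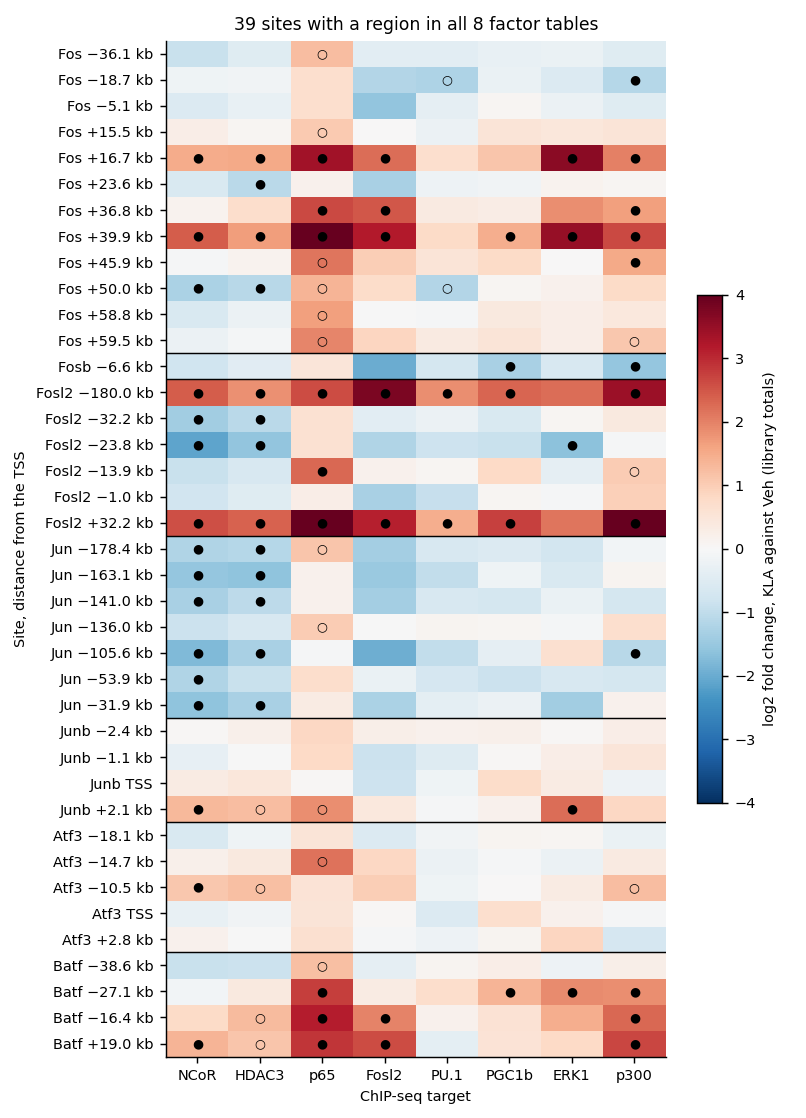
Rows are the 39 sites near the 7 genes with a region in all 8 factor tables, named by gene and distance from the TSS, and columns are the 8 ChIP-seq targets. Color gives the log2 fold change with KLA against Veh on library totals, limited to 4 in either direction, a filled circle marks a call under library totals and TMM, and an open circle a call under library totals alone. The sites Fos +39.9 kb and Fosl2 +32.2 kb are called higher for 7 of 8 factors, and the 7 Jun sites carry lower calls for NCoR at 6.

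Over all regions of the 9 genes, NCoR was called at 51 of 114 with KLA (22 higher and 29 lower), where 40.1% of all NCoR regions were called (23.4% higher and 16.7% lower). HDAC3 was called at 47 of 106 (24 higher and 23 lower), where 38.8% of all regions were (27.5% higher and 11.3% lower), and TMM gave 19 higher and 26 lower. The share of lower calls was thus 25.4% and 21.7% for the members, above the share over all regions for both corepressor subunits, and no test was made of that difference. Jun held 17 of the 29 lower NCoR calls and 12 of the 23 lower HDAC3 calls, so much of that share came from 1 gene. For p65, 60 of 103 were higher and 6 lower, near the background of 57% and 5.43% (62.4% either way), and TMM left 31 higher and 19 lower. For p300, 65 of 142 were higher and 14 lower, against a background of 42.1% and 12.9% (54.9%), and TMM gave 48 and 34.

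The other 4 factors changed at fewer regions. Fosl2 was called higher at 14 of 74 regions and lower at 2, where 11.4% and 4.19% of all regions were (15.6% either way). This count depended on the fit, with 17 higher and 11 lower under TMM and 3 in all with a replicate block. PU.1 was higher at 5 of 101 and lower at 13 (background 4.53% and 21.7%, 26.3% either way), and TMM gave 10 and 7. PGC1b was higher at 8 of 87 and lower at 7 (16.4% and 6.35%, 22.8% either way). ERK1 was higher at 7 of 77 and lower at 4 (10.3% and 2.53%, 12.9% either way). The median log2 fold change of the member regions was close to that of all regions, −0.12 against 0.10 for NCoR, −0.03 against 0.27 for HDAC3, 1.29 against 1.46 for p65 and 0.80 against 0.65 for p300. The shares over all regions given for each factor are also those to set beside the counts of single genes below.

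**Figure D2:**
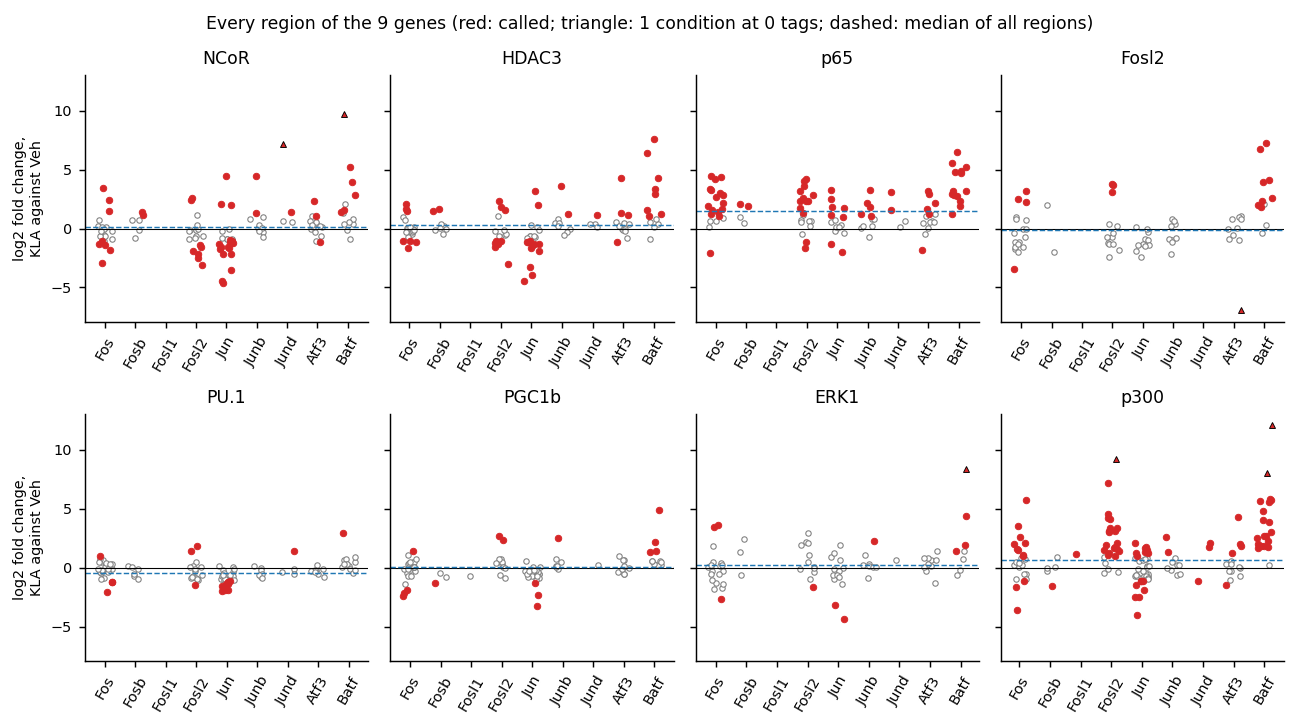
Each panel is 1 ChIP-seq target and each point 1 region of the gene on the x axis, with its log2 fold change with KLA against Veh on library totals on the y axis. Red points are called, triangles have 0 tags in 1 condition so that their height depends on the fit, and the dashed line is the median of all regions of the table. Batf points lie above 0 for p65 and p300, where 14 of 14 and 19 of 20 regions were called higher, and most NCoR points of Jun lie below 0, with 17 of 27 called lower.

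Batf, whose protein pairs with JUN proteins, gained most factors at several of its regions. With KLA, p65 was called higher at 14 of its 14 regions, p300 at 19 of 20, HDAC3 at 8 of 13, Fosl2 at 8 of 11, NCoR at 6 of 14, ERK1 at 4 of 8, PGC1b at 4 of 11 and PU.1 at 1 of 12, and no Batf region was called lower for any of the 8 factors on library totals. Under TMM, p65 was higher at 11 of 14, p300 at 18 of 20 and HDAC3 at 6 of 13, and 1 region was lower, for HDAC3 at −38.6 kb. At Batf −20.0 kb, p65 rose from 0.876 and 8.39 to 397 and 445 tags per 10 M (log2 fold change 6.51 ± 0.42 SE, adjusted p = 9.76e-07). Fosl2 rose there from 2.82 and 1.05 to 147 and 288 (6.77 ± 1.06, adjusted p = 5.85e-08). The corepressor gained too: NCoR rose from 3.59 and 0 to 64.8 and 79.6 (5.26 ± 0.67, adjusted p = 0.000261). HDAC3 rose from 0.728 and 1.11 to 102 and 73.8 (6.43 ± 0.66, adjusted p = 1.91e-20).

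PGC1b at Batf −20.0 kb rose from 1.76 and 2.32 to 67.7 and 60.1 (4.89 ± 0.50, adjusted p = 4.17e-06). p300 rose from 3.76 and 6.57 to 264 and 258 (5.65 ± 0.26, adjusted p = 1.33e-10). ERK1 was at 0 and 0 with Veh and at 56.6 and 50.4 with KLA, at least 26.7-fold higher when the Veh group is set to its limit of 3 tags. KLA and Veh libraries did not overlap for any of the 7 factors with a region at this site. PU.1 had no region within 500 bp.

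The intronic site Batf +16.9 kb gained all 5 factors that had a region there. NCoR was at 0 and 0 with Veh and at 89.9 and 102 with KLA, at least 53.9-fold higher, and p300 went from 0 and 0 to 315 and 324, at least 332-fold higher. HDAC3 rose from 1.46 and 0 to 117 and 167 (7.60 ± 0.65, adjusted p = 8.92e-29). p65 rose from 7 and 6.53 to 299 and 361 (5.59 ± 0.30, adjusted p = 6.64e-07). Fosl2 rose from 2.82 and 0 to 182 and 258 (7.29 ± 1.11, adjusted p = 2.39e-08). PU.1, PGC1b and ERK1 had no region there. The site Batf +24.1 kb, in contrast, already carried tags with Veh: NCoR was 204 and 275 with Veh and 331 and 288 with KLA (0.37 ± 0.20, adjusted p = 0.151). At this site p65 rose from 63.9 and 55.9 to 506 and 586 (3.18 ± 0.21, adjusted p = 1.04e-06). p300 rose from 84.6 and 85.4 to 547 and 568 (2.71 ± 0.14, adjusted p = 3.8e-10). At the Batf promoter p300 rose from 10.0 and 9.86 to 30.2 and 35.7 (log2 fold change 1.72).

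**Figure D3:**
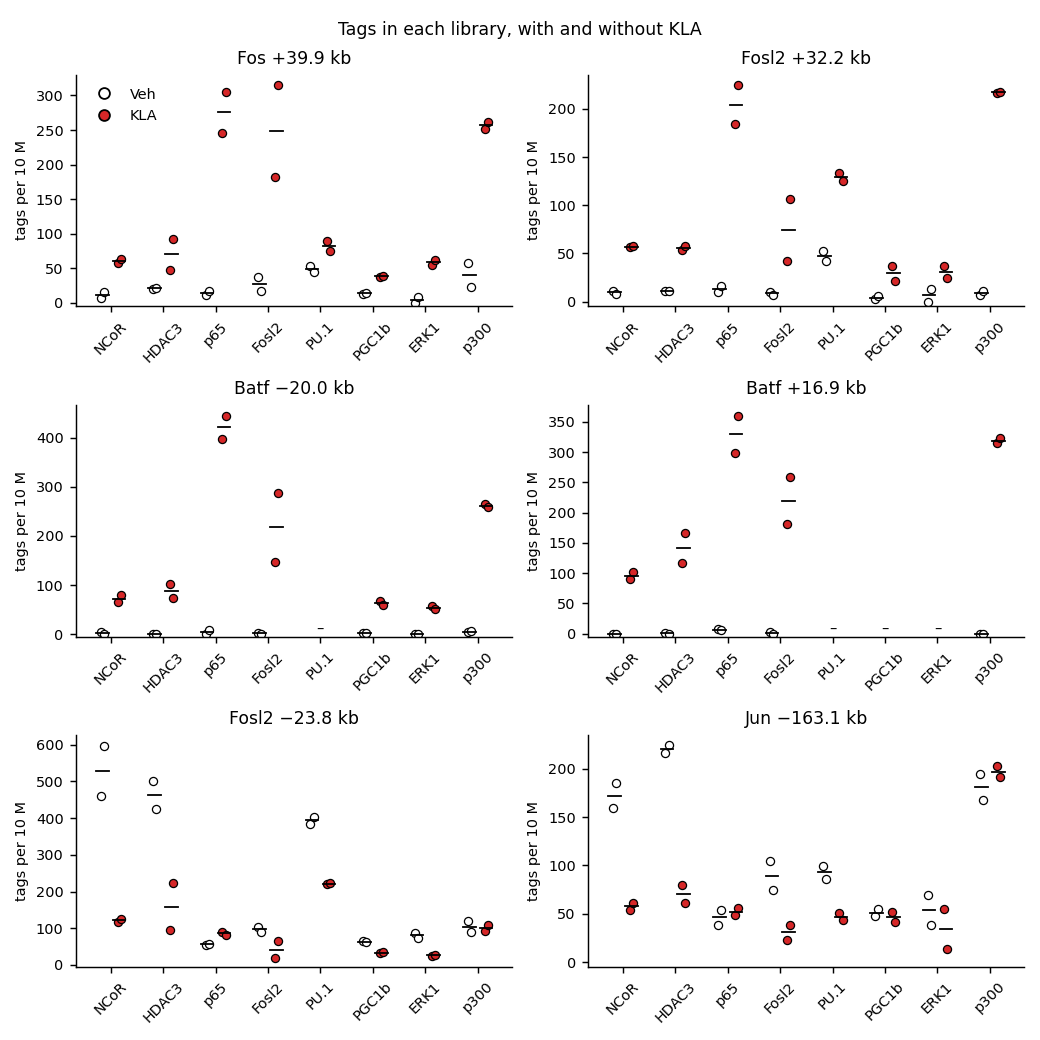
Each panel is 1 site and the x axis gives the ChIP-seq target, with tags per 10 M in each of 2 libraries with Veh (open) and KLA (red) and their mean as a bar. A dash marks a factor with no region at the site. The 4 upper panels show gains, from 0 or near 0 tags at both Batf sites, and the 2 lower panels show losses of NCoR and HDAC3 at Fosl2 −23.8 kb and Jun −163.1 kb, where p300 with KLA stayed between 92.1 and 203.

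Fos, the founding partner of JUN, had a locus in which the promoter lost and distal sites gained. At the promoter, p65 fell from 57.8 and 81.1 to 13.4 and 19.8 (−2.06 ± 0.40, adjusted p = 0.00101), against the direction of most p65 regions. HDAC3 fell from 59.7 and 60.3 to 26.4 and 31.6 (−1.07 ± 0.44, adjusted p = 0.0374), a call kept in 1 of 4 fits that each left out 1 library. The values of p300 were 44.5 and 56.5 with Veh and 25.1 and 26.5 with KLA (−0.97 ± 0.31, adjusted p = 0.012, under 2-fold; −1.49 under TMM, called), those of Fosl2 were 79.0 and 79.7 and then 6.98 and 37.4 (−1.76 ± 0.87, adjusted p = 0.166; called lower under TMM, −1.82, and DESeq2, −1.96), and those of ERK1 47.2 and 52.0 and then 4.92 and 23.1 (−1.83 ± 0.66, adjusted p = 0.0849).

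Upstream of the promoter, between −1.6 and −1.8 kb, the loss extended to more factors. NCoR fell from 111 and 127 to 38.9 and 29.1 (−1.81 ± 0.29, adjusted p = 0.000807). HDAC3 fell from 87.3 and 88.5 to 24.6 and 35.1 (−1.61 ± 0.42, adjusted p = 0.000606). p300 fell from 53.9 and 47.3 to 18.9 and 13.5 (−1.63 ± 0.34, adjusted p = 0.000648). Fosl2 fell most in fold, from 94.5 and 77.6 to 6.98 and 8.18 (−3.46 ± 0.98, adjusted p = 0.00531). PGC1b fell from 30.0 and 44.2 to 18.6 and 1.14 (−2.17 ± 0.66, adjusted p = 0.0221), with its KLA libraries far apart.

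Downstream of Fos, the intergenic site Fos +39.9 kb gained 7 of 8 factors. There p65 rose from 11.4 and 17.7 to 246 and 304 (4.24 ± 0.30, adjusted p = 1.49e-06). Fosl2 rose from 38.1 and 17.8 to 182 and 315 (3.16 ± 0.78, adjusted p = 0.00105). p300 rose from 58.3 and 23.7 to 252 and 262 (2.64 ± 0.26, adjusted p = 3e-07). These 3 had the highest levels with KLA at the site. NCoR rose from 7.17 and 15.3 to 57.5 and 63.0 (2.41 ± 0.45, adjusted p = 0.0018). HDAC3 rose from 20.4 and 22.1 to 47.5 and 93.1 (1.67 ± 0.44, adjusted p = 0.000803). Thus both corepressor subunits were among the gains. PGC1b rose from 12.9 and 14.9 to 38.2 and 38.9 (1.46 ± 0.41, adjusted p = 0.0141). ERK1 rose from 0 and 9.25 to 55.3 and 62.6 (3.48 ± 0.80, adjusted p = 0.019). The Veh and KLA libraries of each of these factors were apart. PU.1 was 52.8 and 44.2 with Veh and 89.0 and 75.2 with KLA (0.75 ± 0.17, adjusted p = 6.28e-05), under 2-fold on library totals and called under TMM (1.16).

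Fos +16.7 kb gained 6 factors, with p65 rising from 27.1 and 10.3 to 182 and 211 (3.37 ± 0.36) and ERK1 from 12.6 and 0 to 68.9 and 72.1 (3.61 ± 0.84). Not all distal Fos sites went this way. At Fos +50032 bp NCoR fell from 167 and 240 to 97.2 and 71.3 (log2 fold change −1.28) and HDAC3 by 1.10 on the log2 scale, while p65 rose from 42.0 and 37.3 to 85.5 and 120 (1.37), a call that TMM did not keep (0.13). In total, 3 of 20 Fos regions of NCoR were called higher and 5 lower, compared with 15 higher and 1 lower of 20 for p65 (8 and 2 under TMM). The end of Fos lies 209446 bp from the start of Batf on chromosome 12, with Jdp2, a bZIP repressor of AP-1, between them, so the nearest TSS divides one stretch of the chromosome among 3 bZIP genes.

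Fosl2, whose protein was itself profiled, had both losses of NCoR and gains shared by most factors. Those shared most were Fosl2 +32.2 kb and −180.0 kb, each called higher for 7 factors, all but ERK1. At +32.2 kb p300 rose from 6.90 and 11.2 to 217 and 217 (4.58 ± 0.25, adjusted p = 5.65e-10). p65 rose from 9.63 and 15.9 to 184 and 224 (4.00 ± 0.32, adjusted p = 3.1e-06). NCoR rose from 10.8 and 8.24 to 56.7 and 57.4 (2.57 ± 0.43, adjusted p = 0.00106). PU.1 rose there from 52.2 and 42.3 to 134 and 125 (1.44 ± 0.15, adjusted p = 8.02e-16), and the Fosl2 protein from 9.87 and 7.34 to 41.9 and 106 (3.11 ± 0.97, adjusted p = 0.0127). PU.1 was called higher at 2 of the 39 sites, and these were the 2 (5 sites under TMM).

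At Fosl2 −23.8 kb the corepressor was lost. NCoR fell from 460 and 598 to 118 and 125 (−2.12 ± 0.19, adjusted p = 5.76e-05). HDAC3 fell from 503 and 424 to 94.4 and 223 (−1.59 ± 0.40, adjusted p = 0.000435). ERK1 fell from 88.1 and 72.8 to 24.6 and 27.2 (−1.63 ± 0.43, adjusted p = 0.0304), a call kept in 1 of 4 fits without 1 library. Values for p300 overlapped, at 121 and 88.7 with Veh and 92.1 and 110 with KLA (−0.06 ± 0.20, adjusted p = 0.813). Fosl2 −32.2 kb, which holds an AP-1 match, lost NCoR from 381 and 367 to 139 and 144 (log2 fold change −1.40) and HDAC3 from 368 and 341 to 141 and 198 (−1.08). Over the locus, 20 of 25 Fosl2 regions were called higher for p300 and 0 lower, against 2 higher and 6 lower of 18 for NCoR. Of all regions, 42.1% were higher for p300 and 16.7% lower for NCoR.

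Fosb had 1 site held by all 8 factors, at −6.6 kb, and it lost factors. There p300 fell from 154 and 159 to 56.8 and 50.3 (−1.54 ± 0.19, adjusted p = 3.82e-06). PGC1b fell from 68.2 and 68.8 to 35.0 and 21.7 (−1.31 ± 0.35, adjusted p = 0.0101), a call kept in 1 of 4 fits without 1 library. NCoR was 396 and 464 with Veh and 264 and 228 with KLA (−0.81 ± 0.18, adjusted p = 0.00422), under 2-fold. Over the Fosb locus, NCoR was called higher at 2 of 6 regions and HDAC3 at 2 of 8, with 0 lower, and TMM gave the same counts. For p65, 2 of 4 Fosb regions were higher and 0 lower, where 57% of all regions were higher, and 0 were called under TMM. Fosl1 had 2 regions, and p300 at +1.1 kb, within the gene and with an AP-1 match, was 6.27 and 10.5 with Veh and 20.5 and 17.3 with KLA (log2 fold change 1.17, adjusted p = 0.0494), a call that TMM did not keep (0.65).

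Jun, the founding JUN gene, stood at the other end from Batf: 17 of 27 regions were called lower and 3 higher for NCoR, 12 lower and 2 higher of 23 for HDAC3, and 9 lower and 0 higher of 26 for PU.1. TMM gave 17 and 3, 13 and 2, and 5 and 0. On library totals, the lower shares over all regions were 16.7% for NCoR, 11.3% for HDAC3 and 21.7% for PU.1. At Jun −163.1 kb NCoR fell from 159 and 185 to 54.3 and 61.6 (−1.56 ± 0.23, adjusted p = 0.000568). HDAC3 fell from 217 and 225 to 79.7 and 61.5 (−1.62 ± 0.37, adjusted p = 7.91e-05). At Jun −31.9 kb NCoR fell from 140 and 168 to 51.0 and 50.5 (−1.60 ± 0.24, adjusted p = 0.000641). HDAC3 fell from 129 and 117 to 48.7 and 52.7 (−1.29 ± 0.38, adjusted p = 0.00272). At this pair of sites p300 was not called, with 195 and 168 and then 203 and 191 at −163.1 kb (0.12 ± 0.15, adjusted p = 0.512), although over the locus it was called lower at 8 of 41 regions and higher at 8, and under TMM lower at 20 and higher at 3. Away from the shared sites the losses of NCoR at Jun were larger in fold. Jun −158.3 kb fell from 58.6 and 91.8 to 3.24 and 2.77 (−4.60 ± 0.51, adjusted p = 0.000136). Jun −251.3 kb went the other way, from 17.9 and 41.2 to 137 and 120 (2.11 ± 0.35, adjusted p = 0.00105). Jun −105.6 kb was a site where p300 did fall with NCoR and HDAC3, from 56.4 and 53.9 to 25.6 and 25.4 (−1.11 ± 0.30, adjusted p = 0.00375).

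The Jun promoter lost p65, from 57.8 and 46.6 to 18.7 and 23.3 (−1.31 ± 0.39, adjusted p = 0.0116), as the Fos promoter did. PU.1 fell there from 39.8 and 42.3 to 17.0 and 19.1 (−1.18 ± 0.24, adjusted p = 5.24e-06; −0.76 under TMM, not called), and NCoR was 114 and 137 with Veh and 62.4 and 74.0 with KLA (−0.87 ± 0.25, adjusted p = 0.0154, under 2-fold).

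Junb, an inducible partner of FOS proteins, and Jund, which is more constantly expressed, had calls at some regions. With KLA, NCoR was higher at 2 of 10 Junb and 2 of 4 Jund regions and lower at 0. For p300, 2 of 10 Junb regions were higher and 0 lower (1 and 2 under TMM). Of 3 Jund regions of p300, 2 were higher and 1 lower (1 and 1 under TMM). Jund −4.7 kb had 0 NCoR tags in the Veh group and 45 with KLA, at least 9.42-fold higher. At the Junb promoter none of the 8 factors was called on library totals, while TMM called p65 lower (−1.18), with NCoR at 140 and 148 with Veh and 184 and 176 with KLA. Below the 3′ end of the gene, at Junb +2.1 kb, ERK1 rose from 17.3 and 19.7 to 98.4 and 77.6 (2.24 ± 0.44, adjusted p = 0.0129). NCoR rose from 118 and 75.3 to 263 and 214 (1.30 ± 0.25, adjusted p = 0.00196). At that site p65 rose from 106 and 115 to 387 and 414 (1.86 ± 0.19, adjusted p = 1.55e-05; 0.63 under TMM, not called). Jund +2.9 kb was held by 6 tables and called in none on library totals, with p65 at a log2 fold change of 0.14, which TMM called lower (−1.08).

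At Atf3 the region over the TSS had no call and sites upstream gained factors. None of the 8 factors was called over the TSS, where p300 was 181 and 158 with Veh and 178 and 150 with KLA. Within 2 kb of it, Fosl2 was called lower at Atf3 +1.2 kb (adjusted p = 0.00371). The group there had 35 tags with Veh and 0 with KLA, at least 8.79-fold lower. At Atf3 −10.5 kb NCoR rose from 52.6 and 96.5 to 152 and 161 (1.07 ± 0.28, adjusted p = 0.0108). HDAC3 rose from 61.8 and 63.0 to 117 and 172 (1.19 ± 0.37, adjusted p = 0.00417). p300 rose from 35.7 and 51.9 to 111 and 95.7 (1.24 ± 0.24, adjusted p = 0.000307). TMM kept the NCoR call alone of these 3. The NCoR and HDAC3 calls were each kept in 1 of 4 fits without 1 library. At this site p65 had 2 regions, 1 of them called higher on library totals (1.67 ± 0.32, adjusted p = 0.00104; 0.45 under TMM). At Atf3 −14.7 kb p65 rose from 81.4 and 120 to 447 and 454 (log2 fold change 2.16; 0.95 under TMM, not called).

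The 27 other bZIP genes examined, among them the MAF, CEBP, BACH and further ATF genes, were given by counts. With KLA they had 61 regions higher and 37 lower of 271 for NCoR, 59 and 27 of 240 for HDAC3, 156 and 13 of 249 for p65, 20 and 6 of 161 for Fosl2, 8 and 43 of 217 for PU.1, 45 and 17 of 213 for PGC1b, 19 and 6 of 159 for ERK1 and 156 and 47 of 348 for p300. TMM gave 61 and 37 for NCoR, 54 and 42 for HDAC3, 81 and 44 for p65, 32 and 18 for Fosl2, 17 and 24 for PU.1, 44 and 24 for PGC1b, 15 and 7 for ERK1 and 125 and 81 for p300. Over all regions the shares higher and lower on library totals were 23.4% and 16.7% for NCoR and 27.5% and 11.3% for HDAC3. They were 57% and 5.43% for p65, 42.1% and 12.9% for p300 and 11.4% and 4.19% for Fosl2. For PU.1 they were 4.53% and 21.7%, for PGC1b 16.4% and 6.35% and for ERK1 10.3% and 2.53%. For NCoR the relatives, like all regions, had more higher than lower calls, whereas the 9 genes had 22 higher and 29 lower. For HDAC3 the 9 genes had 24 and 23 (19 and 26 under TMM). The NCoR contrast rested on Jun, with 3 higher and 17 lower. Besides Jun, only Fos (3 and 5) and Fosl2 (2 and 6) had more lower than higher NCoR calls.

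Promoters with the most similar pattern were found among the 1746 genes with a promoter region in all 8 factor tables, by the Euclidean distance of the 8 log2 fold changes. Fos was nearest to Dmtf1 (distance 1.26), Jun to Cited2 (0.95), Fosl2 to Dnmbp (1.28), Junb to Grn (0.27) and Atf3 to Hps6 (0.53), and the other 4 genes lacked a promoter region in at least 1 table.

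To ask whether ERK activity bears on the KLA response, KLA libraries with and without ERKi were compared. For NCoR, 45 of 121 member regions were called lower with ERKi and 0 higher, where 49.2% of all regions were called. Library totals shifted the median of all regions by −1.16 relative to TMM, and TMM gave 12 higher and 3 lower. The names of the ERKi libraries carry another number than those of the KLA libraries, so the inhibitor and the library set cannot be told apart, and the share of tags in regions was 15.0% to 15.8% with ERKi and 32.2% to 34.2% without. At Jun −163.1 kb NCoR fell from 54.3 and 61.6 to 8.45 and 12.9 (−2.43 ± 0.35, adjusted p = 0.000224), and this was one of the 3 lower calls under TMM (−1.27). Batf +16.9 kb went from 95.6 and 112 to 32.1 and 18.1 (−2.04 ± 0.39, adjusted p = 0.00133; −0.88 under TMM, not called), and Fos +39.9 kb had 64.0 and 64.3 without and 57.5 and 51.7 with ERKi (−0.23 ± 0.34, adjusted p = 0.563). The KLA libraries are those of the comparison with Veh.

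For PGC1b in the DMSO experiment, KLA against Veh called 23 of 111 member regions higher and 2 lower (17.6% of all regions called), of which Batf held 11 of its 15 higher, and TMM gave 12 and 7. Batf −20.0 kb again rose, from 3.25 and 4.37 to 88.8 and 110 (4.70 ± 0.59, adjusted p = 4.7e-06), in libraries separate from those above. ERKi against DMSO with KLA called 0 of 111 member regions and 0.286% of all regions with edgeR, and at an unadjusted p under 0.05 the member regions held 4 rises and 11 falls, while DESeq2 called 1 higher and 1 lower. PGC1b at Jun −163.2 kb was 80.9 and 96.8 with DMSO and 28.2 and 7.76 with ERKi (−2.34 ± 0.54, adjusted p = 0.0571), and at Fos +39.9 kb 17.8 and 52.1 with DMSO and 121 and 99.6 with ERKi (1.61 ± 0.50, adjusted p = 0.141). Batf −20.0 kb had 72.0 and 58.2 with ERKi (−0.62 ± 0.44, adjusted p = 0.543). None of these 3 passed the test.

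During osteoclast differentiation, p300 rose at most regions of the series, and regions of the Fos and Fosl2 loci were among them. Of 82 member regions, 54 (65.9%) were called higher at day 4 and 0 lower, near the 62.5% of all regions called. The 54 included 23 of 24 Fosl2, 15 of 21 Fos, 10 of 17 Jun, 3 of 6 Batf, 2 of 6 Junb and 1 of 4 Atf3 regions. Library totals shifted the median of all regions by 1.61 relative to TMM, and TMM gave 16 higher, 8 of them at Fos and 7 at Fosl2, and 1 lower. Fos +39.9 kb rose from 3.52 and 8.52 to 476 and 469 tags per 10 M (6.49 ± 0.46, adjusted p = 1.96e-05; 4.88 under TMM), the site that also gained p300 with KLA in BMDMs. Fos +36.8 kb rose from 2.64 and 17.0 to 277 and 276 (5.20 ± 0.54, adjusted p = 7.3e-05; 3.58 under TMM), and Fosl2 −59.1 kb, in an intron of the neighboring gene, from 5.27 and 25.6 to 359 and 357 (4.85 ± 0.50, adjusted p = 7.4e-05; 3.23 under TMM). Fosl2 −69.1 kb was at 0 and 0 at day 0 and at 227 and 172 at day 4, at least 107-fold higher.

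Near the TSS of Atf3 and Jund no change passed the test. Atf3 had 46.6 and 51.1 at day 0 and 80.2 and 53.3 at day 4 (0.46 ± 0.40, adjusted p = 0.304), and Jund +1.1 kb, in the 5′ UTR, had 28.1 and 70.3 and then 59.7 and 22.7 (−0.16 ± 0.57, adjusted p = 0.80). The summed p300 level over 4 of 5 osteoclast markers with a region rose from 44.7 to 49.2 at day 0 to 238 to 248 at day 4, and over 6 of 6 macrophage markers from 283 to 373 to 449 to 500. Fewer cells of a type and less signal per cell cannot be told apart in such bulk samples. ERK1 at day 4 was called higher at 1 of 39 member regions, Fosl2 −32.2 kb (4.30 and 3.15 to 34.2 and 27.5, 2.99 ± 0.80, adjusted p = 0.049), and lower at 0, where 2.35% of all regions were called. TMM called 0, an unadjusted p under 0.05 gave 10 rises and 0 falls, and 1 of the day 4 libraries is described as replicate 3 with another number in its name.

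**Figure D4:**
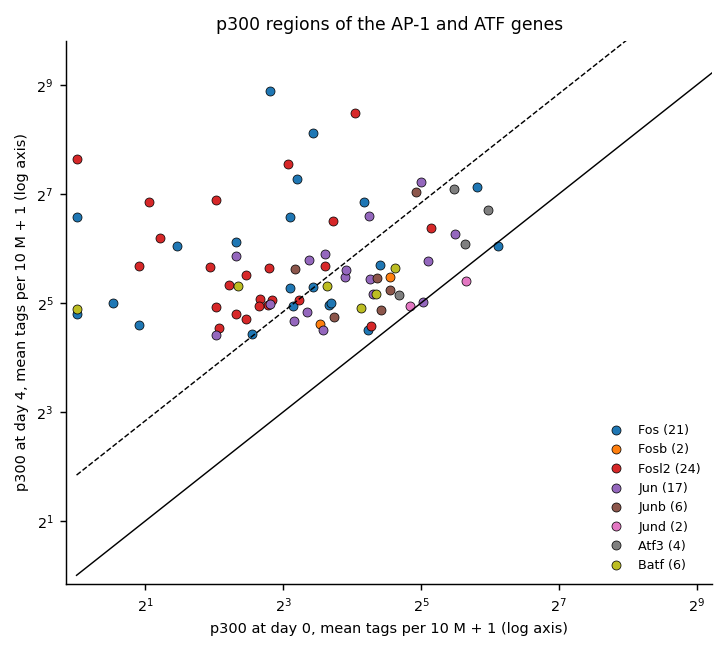
Each point is 1 of 82 p300 regions of the 9 genes (Fosl1 had none), with the mean tags per 10 M plus 1 of 2 libraries at day 0 on the x axis and at day 4 on the y axis, both log axes. The solid line is no change and the dashed line the median change of all p300 regions. Fos and Fosl2 points lie farthest above the dashed line, with Fos +39.9 kb at 476 and 469 tags per 10 M at day 4.

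H3K27ac was first compared in WT and NKO BMDMs. In WT, KLA raised 5 of 42 tested member regions and lowered 1, where 10.2% of all regions were called, and in NKO it raised 2 and lowered 4 (10.7%). The Fosb region at −6.5 kb lost the mark in both, from 80.7 and 74.4 to 10.7 and 9.65 in WT (−2.92 ± 0.36, adjusted p = 3.29e-08) and from 64.2 and 76.6 to 27.1 and 7.64 in NKO (−1.96 ± 0.33, adjusted p = 2.39e-05). Batf +18.0 kb gained it in both, from 13.9 and 14.8 to 105 and 106 in WT (2.87 ± 0.30, adjusted p = 7.94e-10) and from 9.59 and 17.4 to 53.6 and 87.5 in NKO (2.33 ± 0.32, adjusted p = 4.08e-07). The effects of KLA in the 2 genotypes differed by −0.53 ± 0.45 there (adjusted p = 0.636).

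Between genotypes few regions were called. NKO against WT called 1 of 42 higher with Veh (1% of all regions) and 0 with KLA (0.789%), where edgeR gave 1 rise and 4 falls at an unadjusted p under 0.05 and DESeq2 gave 0 calls. The interaction of NKO and KLA called 1 (0.697% of all regions). All 3 counts were 0 under TMM. The 1 region was Jun −109.2 kb, where WT values were 12.0 and 16.3 and then 30.8 and 40.7 with KLA. NKO values were 53.1 and 38.9 and then 23.4 and 22.9 with KLA, an interaction of −2.30 ± 0.50 (adjusted p = 0.0144). At the Fos promoter H3K27ac was 114 and 115 and then 97.5 and 117 in WT, and 190 and 159 and then 103 and 106 in NKO, with an interaction of −0.65 (adjusted p = 0.196). Junb +2.2 kb rose from 71.9 and 86.1 to 148 and 172 in WT (1.01 ± 0.18, adjusted p = 3.73e-05; 0.87 under TMM, not called) and had 114 and 102 and then 140 and 115 in NKO, with an interaction of −0.77 ± 0.25 (adjusted p = 0.132).

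In the DMSO experiment, KLA lowered H3K27ac at Jun regions and RGFP966 raised it. In WT and NKO BMDMs, counted over other and narrower regions, KLA lowered 0 of 9 Jun regions and raised 1 in WT and 0 in NKO. In the DMSO libraries KLA lowered 11 of 34 member regions (32.4%) and raised 1 (34.8% of all regions called), and 8 of the 11 were among the 14 Jun regions. Of all 25045 regions tested, KLA lowered 7038 and raised 1686. TMM gave 5 higher and 7 lower, 4 of these 7 at Jun. With KLA, RGFP966 against DMSO raised 11 of 34 (32.4%) and lowered 1 (36.5% of all regions called). Of all 25045 regions, RGFP966 raised 6749 and lowered 2388. Jun regions held 8 of the higher calls, under library totals and under TMM, which gave 10 higher and 6 lower in all. Both comparisons share the DMSO libraries with KLA, so that a low value in these would move them in opposite directions. Jun −163.2 kb had 203 and 201 tags per 10 M with Veh, 60.2 and 40.4 with KLA and 257 and 186 with RGFP966 and KLA. The loss with KLA was −1.98 ± 0.24 (adjusted p = 9.29e-16) and the gain with RGFP966 2.12 ± 0.23 (adjusted p = 4.16e-17).

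Fos −1.6 kb followed the same course, from 216 and 169 with Veh to 58.3 and 51.3 with KLA (−1.81 ± 0.24, adjusted p = 3.39e-13) and 179 and 115 with RGFP966 (1.42 ± 0.24, adjusted p = 2.84e-08). Fosl2 −23.7 kb, where NCoR and HDAC3 were lost with KLA, had 66.5 and 69.8, then 75.1 and 58.1 (−0.02 ± 0.25), and rose to 206 and 177 with RGFP966 (1.51 ± 0.23, adjusted p = 1.12e-09). Batf +24.2 kb behaved otherwise, with 21.6 and 16.6 with Veh, 294 and 241 with KLA (3.80 ± 0.27, adjusted p = 5.51e-41) and 182 and 168 with RGFP966 (−0.61 ± 0.21, adjusted p = 0.0064, under 2-fold). The 1 lower call with RGFP966 was Jund +1.1 kb, from 281 and 221 to 131 and 96.9 (−1.14 ± 0.21, adjusted p = 4.46e-07). The summed H3K27ac level of the 6 macrophage markers was 2460 to 3100 with KLA and 2070 to 2320 with RGFP966, and its part in these results was not tested.

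**Figure D5:**
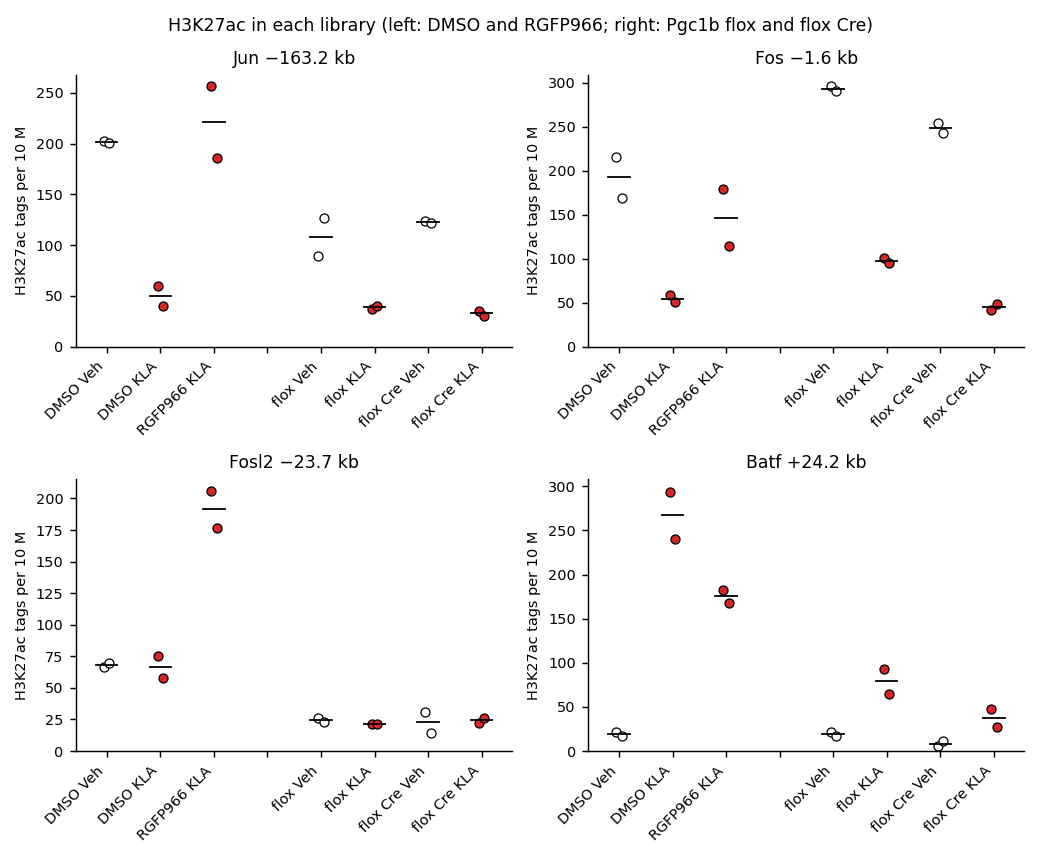
Each panel is 1 region, with H3K27ac tags per 10 M in each of 2 libraries per group and their mean as a bar, without (open) and with (red) KLA, for the DMSO and RGFP966 experiment on the left and PGC1b flox/flox BMDMs without and with LysMCre on the right. Jun −163.2 kb and Fos −1.6 kb fall with KLA in both experiments and are higher with RGFP966, and Batf +24.2 kb rises with KLA in both.

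In PGC1b flox/flox BMDMs, KLA lowered H3K27ac at 10 of 34 member regions and raised it at 2 (30.8% of all regions called), and with LysMCre at 13 and 1 (36.7%). Of all 25197 regions tested, KLA lowered 6450 and raised 1315 without LysMCre, and lowered 8189 and raised 1054 with it. TMM gave 5 lower and 2 higher without and 6 lower and 2 higher with LysMCre. Jun held 7 of the lower calls without and 8 with LysMCre, and 2 and 3 under TMM. LysMCre against no LysMCre called 0 higher and 1 lower with Veh (0.397% of all regions), 0 higher and 3 lower with KLA (7.52%), and the interaction called 1 (5.37%), and all of these were 0 under TMM. The summed level of the 6 macrophage markers was 2670 to 2780 without LysMCre and 1350 to 1410 with it, both with KLA, and its part in the lower calls was not tested.

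Fos −1.6 kb fell from 297 and 290 to 100 and 95.5 with KLA (−1.58 ± 0.13, adjusted p = 4.42e-31) and in LysMCre BMDMs from 255 and 243 to 41.9 and 48.2 (−2.46 ± 0.15, adjusted p = 1.05e-51). The KLA libraries of the genotypes differed by −1.12 ± 0.17 (adjusted p = 2.54e-09; −0.72 under TMM, not called), and the interaction was −0.88 ± 0.21 (adjusted p = 0.000445, under 2-fold). Atf3 +2.7 kb, in an intron, rose from 175 and 150 to 418 and 446 without LysMCre (1.41 ± 0.10, adjusted p = 1.53e-39) and from 170 and 180 to 273 and 308 with it (0.73 ± 0.11, adjusted p = 3.92e-11, under 2-fold; 1.35 under TMM, called), with an interaction of −0.67 ± 0.15 (adjusted p = 0.000111, under 2-fold). Batf +24.2 kb had 21.9 and 17.3 and then 93.1 and 65.1 without LysMCre, and 5.61 and 11.3 and then 47.7 and 27.4 with it, with an interaction of 0.14 ± 0.46 (adjusted p = 0.885).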

How the data were processed

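ChIP-seq was read from count tables deposited by the authors, who counted tags (at most 3 per position) in merged peaks or, for H3K27ac, in ATAC-seq peaks or windows around them, with HOMER on mm10. Bowtie2, HOMER and DESeq2 are named in the submitters' processing notes. The values are raw tag counts with no normalization. Of 100 samples in 50 groups of 2, 70 libraries had a column, and the other 30 samples were not analysed here. No other value columns were present (0). Labels call replicates biological, with no source animal given, so p-values measure the spread between these samples.

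Counts were tested with edgeR 4.0.16 in R 4.3.3 (quasi-likelihood F-test, 1 fit per table, library totals from the column headers), with a Benjamini-Hochberg adjusted p under 0.05 over the table and a log2 fold change beyond 1. Regions needed 4 tags (factors) or 16 tags (H3K27ac) in 1 library. SE is the log2 fold change divided by the root of F. A group at 0 was set to 3 tags over the group for bounds, which cover counting error only. Scripts were tested on simulated data. Alternatives were TMM, DESeq2 size factors, DESeq2 1.42.0, no filter, a replicate block and each library left out.

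No pairing by replicate number was seen: deviations of same-numbered samples correlated between −0.0266 and 0.0255 over 31 group pairs. These deviations hold counting error, so the check cannot exclude a shared animal or batch. Sites join regions whose centres lie within 500 bp, keeping for each factor the region with most tags. Regions named in the text are, for each gene, the promoter region (within 2000 bp of the TSS), the strongest distal region, regions at sites held by all 8 factors, and those with the lowest p in each direction, and any others were chosen after their values were seen. The genes and lists were chosen with earlier results of these data known.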

Additional observations from a re-analysis of the deposited data

Results flagged for a closer look

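The effect of KLA on H3K27ac at Jun −109.2 kb differed between NKO and WT BMDMs by a log2 difference of −2.3 (edgeR, adjusted p = 0.0144 by the interaction term). Tags rose with KLA in both WT libraries and were lower with KLA in both NKO libraries. The call was lost under TMM (−1.95) and kept in 2 of 8 fits that each left out 1 library. In the DMSO and PGC1b flox/flox experiments, the 1000 bp window that contains it had log2 fold changes with KLA of −0.10 and 0.00, and neither was called.

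The effect of KLA on H3K27ac at Batf −38.6 kb differed between PGC1b flox/flox BMDMs with and without LysMCre by −1.2 (edgeR, adjusted p = 0.0151 by the interaction term). Tags went from 41.5 and 34.6 to 60.0 and 50.2 without LysMCre and from 46.1 and 34.5 to 26 and 24.8 with it. The call was lost under TMM (−1.01) and kept in 4 of 8 fits without 1 library. Summed macrophage marker H3K27ac was also lower with LysMCre and KLA, and its part in this difference was not tested.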

How the results depend on the processing

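Counts of called member regions moved by over 1.5 times when library totals were replaced by TMM, DESeq2 size factors in edgeR and DESeq2, in that order, as follows. Fosl2 with KLA went from 16 to 28, 30 and 31, NCoR with ERKi from 45 to 15, 15 and 17, p300 at day 4 from 54 to 17, 17 and 9, H3K27ac with KLA from 12 to 7, 7 and 7 in PGC1b flox/flox and from 14 to 8, 8 and 8 with LysMCre. Each of these 3 settings gave 0 for ERK1 at day 4, for NKO against WT with Veh and its interaction with KLA, and for LysMCre against no LysMCre with Veh, with KLA and in the interaction. PGC1b with ERKi had 0 calls and 2 with DESeq2, and NKO against WT with Veh had 2 with no filter. A replicate block, over numbers for which no pairing was seen, gave 3 for Fosl2 with KLA and 0 for ERK1 at day 4, and stayed within 1.5 times for the other comparisons.

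Without 1 library, counts ran from 25 to 55 for NCoR with KLA (27 without KLA replicate 1 and 25 without KLA replicate 2), 13 to 46 for HDAC3 (14 and 13 without Veh replicates 1 and 2), 36 to 69 for p65 (42 and 36 without KLA replicates 1 and 2), 0 to 42 for Fosl2 (0 without either Veh library, 26 and 42 without KLA replicates 1 and 2), 6 to 20 for PGC1b (9 and 6 without Veh replicates 1 and 2) and 3 to 13 for ERK1 (3 and 5 without KLA replicates 1 and 2). They ran from 10 to 18 for PGC1b in the DMSO experiment (10, 14 and 13 without DMSO Veh replicates 1 and 2 and DMSO KLA replicate 1), 22 to 41 for NCoR with ERKi (22 and 29 without KLA replicates 1 and 2), 21 to 62 for p300 at day 4 (23 and 21 without day 4 replicates 1 and 2), and 0 to 4 for ERK1 at day 4 (0 without either day 4 library). For H3K27ac they ran from 2 to 8 with KLA in WT (2 without WT Veh replicate 1 and 3 without WT KLA replicate 2), 0 to 2 for NKO against WT with Veh, 0 to 2 for both interactions, 0 to 1 for LysMCre against no LysMCre with Veh and 1 to 4 with KLA (1 without the flox/flox KLA replicate 1). A lone library of a group was assumed to vary like the other groups.

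Some regions changed direction with the scaling, in the order TMM, DESeq2 size factors and DESeq2. For NCoR with ERKi the log2 fold changes became 0.12, 0.13 and 0.13 at Atf3 −10.4 kb, 0.14, 0.15 and 0.15 at Atf3 −14.8 kb, 1.06, 1.07 and 1.07 at Fos +50022 bp, 0.04, 0.06 and 0.06 at Jun −242 bp, 0.08, 0.09 and 0.09 at Jun −53.9 kb and 0.02, 0.04 and 0.04 at Fosl2 −714 bp. For p300 at day 4 they became −1.58 and −1.49 (TMM and size factors) at Fos −18.6 kb, −0.29, −0.19 and −0.19 at Fos −5.1 kb and −0.20, −0.11 and −0.19 at Fosl2 −724 bp. For p65 with KLA they became −0.01 (TMM) at Fos −36.1 kb and at Batf −38.6 kb, −0.18, −0.15 and −0.15 at Fos +15.5 kb, −1.07, −1.04 and −1.04 at Fos +23.6 kb, −0.21, −0.18 and −0.18 at Jun −136.0 kb, −1.04, −1.01 and −1.01 at Jun −140.9 kb, −1.05, −1.01 and −1.01 at Jun −163.1 kb, −0.10, −0.07 and −0.07 at Jun −178.4 kb, −1.08, −1.05 and −1.05 at Jund +2911 bp and −1.18, −1.15 and −1.15 at the Junb promoter. These shifts follow from the scaling itself, since the total gives each region the change in the share of tags in regions. Both the number of libraries, 2 per group, and their depth of 4.30 to 21.5 M tags limit the precision, and regions of few tags have wide errors.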
